A study of Solanum lycopersicum with 12 samples.

Results

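Flavonoid and anthocyanin synthesis in tomato leaves was followed through 10 loci, the chalcone synthases CHS1 and CHS2, the chalcone isomerase CHI1, the hydroxylases F3H, F3'H and F3'5'H, the flavonol synthase FLS, the dihydroflavonol reductase DFR, the anthocyanidin synthase ANS and the bHLH transcription factor AN1. They were picked by locus identifier, in that order Solyc09g091510, Solyc05g053550, Solyc05g010320, Solyc02g083860, Solyc03g115220, Solyc11g066580, Solyc11g013110, Solyc02g085020, Solyc08g080040 and Solyc09g065100, from a table of 33976 genes, and all 10 were in it. Their names come from the list that chose them, because the table pairs no names with its identifiers. The identifiers place F3H and DFR on chromosome 2, F3'H on chromosome 3, CHS2 and CHI1 on chromosome 5, ANS on chromosome 8, CHS1 and AN1 on chromosome 9, and F3'5'H and FLS on chromosome 11, and positions within the chromosomes were not analysed here. All 10 had at least 0.5 TPM in at least 4 libraries and were among the 21218 genes that were tested.

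Leaf mRNA was sequenced in 12 libraries, 4 of the edited line slmyb60Cr1, 4 of the edited line slmyb60Cr2 and 4 of the wild type (WT), all of the processing cultivar Red Setter. Both edited lines are homozygous for CRISPR-Cas9 deletions in SlMYB60, an R2R3 MYB transcription factor gene, and no longer carry Cas9, so that each stands for 1 edited line and not for a population of edits. Each library pooled discs from fully expanded leaves of 4 plants that were 6 weeks old. The labels give a water stress of 14 days without irrigation for every library, which the methods of the study do not mention for the RNA samples, so that no well-watered reference was compared here. The comparison asks whether transcripts of this pathway differ between leaves with and without intact SlMYB60.

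Flavonoids are built from p-coumaroyl-CoA, the product of the general phenylpropanoid pathway, which chalcone synthase condenses with malonyl-CoA. Chalcone isomerase closes the ring and F3H makes dihydroflavonols, the branch point at which FLS leads to flavonols and DFR and ANS lead to anthocyanidins. F3'H and F3'5'H add hydroxyl groups to the B ring and so set which flavonols and pigments can form. In tomato leaves, flavonols are known as epidermal sunscreens, and the anthocyanin branch as a pathway switched on by light, cold and other stresses through complexes of MYB, bHLH and WD40 proteins, AN1 being the bHLH.

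Levels are given in TPM (transcript levels as a share of the library), a unit scaled for transcript length that sums to 1000000 in every library. It keeps no read counts per gene, so counting error was not computed. Fold changes are differences of log2(TPM + 0.1) between genotype means from limma, which understate the change of low genes. A gene was called at the thresholds of the study, a Benjamini-Hochberg adjusted p below 0.05 with a log2 fold change above 1 or below −1.

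SlMYB60 itself stood at 1.57, 2.10, 2.78 and 2.30 TPM in the slmyb60Cr1 libraries and at 2.19, 2.61, 3.15 and 2.87 TPM in the slmyb60Cr2 libraries, against 12.9, 12.3, 19.3 and 21.6 TPM in the WT libraries. No edited library reached the lowest WT library, and the log2 fold change was −2.85 in slmyb60Cr1 and −2.54 in slmyb60Cr2 (limma, adjusted p of 8.07e-05 and 2.37e-04). The study reports truncated SlMYB60 transcripts in the edited lines, and the part of the missing sequence in the lower TPM was not tested. The defining markers of photosynthetic leaf tissue, 5 loci taken as small subunits of Rubisco and light-harvesting proteins, were abundant, with summed levels of 3727 to 17478 TPM in slmyb60Cr1, 6123 to 22486 TPM in slmyb60Cr2 and 9062 to 18792 TPM in WT. Of 6 loci taken as markers of glandular trichomes, which also make flavonoids, 5 were in the table and 4 of these stayed below 1 TPM in every library. Their summed level was 11.2 to 15.4 TPM in slmyb60Cr1, 13.7 to 16.1 TPM in slmyb60Cr2 and 10.9 to 14.7 TPM in WT, and the part of trichomes in the results was not tested. In leaf tissue, fewer cells of a type and less RNA per cell cannot be told apart.

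Across the pathway, 0 of 10 genes were called in either edited line or in their mean by limma, where 0.669% of all tested genes were called in slmyb60Cr1, 1.4% in slmyb60Cr2 and 1.19% in the mean. A count of 0 among 10 is near that background. By the adjusted p alone, 0 passed in slmyb60Cr1, where 1.69% of all genes did, and 1 passed in slmyb60Cr2. At an unadjusted p below 0.05, limma found F3'H lower in slmyb60Cr1, and F3'H lower and DFR higher in slmyb60Cr2, against 17.1% and 23.1% of all genes in either direction. The median log2 fold change of the 10 genes was −0.01 in slmyb60Cr1, against −0.02 over all tested genes, and 0.30 in slmyb60Cr2, against 0.04 over all tested genes. Both lines were set against the same 4 WT libraries, so their fold changes are not independent of each other.

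**Figure D1:**
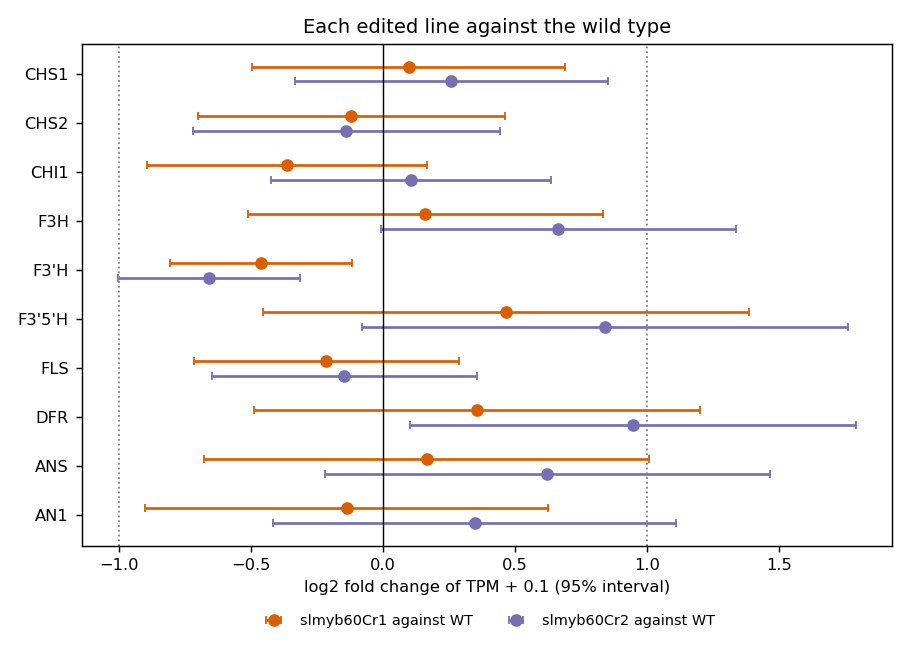
Log2 fold change of TPM + 0.1 of each pathway gene (down the page) in slmyb60Cr1 and in slmyb60Cr2 against the wild type, with the 95% interval of limma; dotted lines mark the fold thresholds of −1 and 1. The intervals of F3'H lie below 0 in both lines and that of DFR lies above 0 in slmyb60Cr2, and every other interval includes 0.

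Of the chalcone synthases, CHS2 was the more abundant. CHS2 had 388, 147, 202 and 249 TPM in the slmyb60Cr1 libraries and 292, 271, 181 and 190 TPM in the slmyb60Cr2 libraries, against 298, 232, 272 and 213 TPM in the WT libraries. Its lowest library, at 147 TPM, was above the highest library of each of the other 9 genes, the next being F3H at 142 TPM. The genotypes overlapped, and the log2 fold change was −0.12 (95% interval −0.70 to 0.46) in slmyb60Cr1 and −0.14 (−0.72 to 0.44) in slmyb60Cr2. CHS1, the second chalcone synthase, had 76.2, 27.3, 39.5 and 47.8 TPM in slmyb60Cr1 and 58.4, 62.5, 43.0 and 39.2 TPM in slmyb60Cr2, against 47.6, 37.1, 47.4 and 35.7 TPM in WT. Both the highest and the lowest CHS1 library belonged to slmyb60Cr1. The log2 fold change of CHS1 was 0.10 (−0.49 to 0.69) in slmyb60Cr1 and 0.26 (−0.33 to 0.85) in slmyb60Cr2. CHS1 and CHS2 are paralogs, and Salmon, which assigned the reads, may split reads that fit both.

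CHI1, which turns naringenin chalcone into naringenin, had 39.2, 21.3, 43.1 and 45.7 TPM in slmyb60Cr1 and 48.7, 46.3, 55.7 and 48.0 TPM in slmyb60Cr2, against 39.6, 33.8, 54.9 and 61.0 TPM in WT. Its highest library was a WT one. Relative to WT the log2 fold change was −0.36 (−0.89 to 0.17) in slmyb60Cr1 and 0.11 (−0.42 to 0.64) in slmyb60Cr2. Between the lines, every slmyb60Cr1 library lay below every slmyb60Cr2 library, as did 7.79% of all tested genes, and the difference of −0.47 did not pass (SE 0.24, limma adjusted p = 0.406).

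F3H, the dioxygenase that makes dihydroflavonols, had 116.5, 46.8, 62.5 and 77.7 TPM in slmyb60Cr1 and 101, 142, 90.4 and 82.0 TPM in slmyb60Cr2, against 84.8, 39.3, 82.5 and 61.3 TPM in WT. Only WT replicate 1, at 84.8 TPM, and WT replicate 3, at 82.5 TPM, stood above the lowest slmyb60Cr2 library. F3H had a log2 fold change of 0.16 (−0.51 to 0.83) in slmyb60Cr1 and 0.66 (−0.01 to 1.34) in slmyb60Cr2, with limma adjusted p of 0.844 and 0.222.

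**Figure D2:**
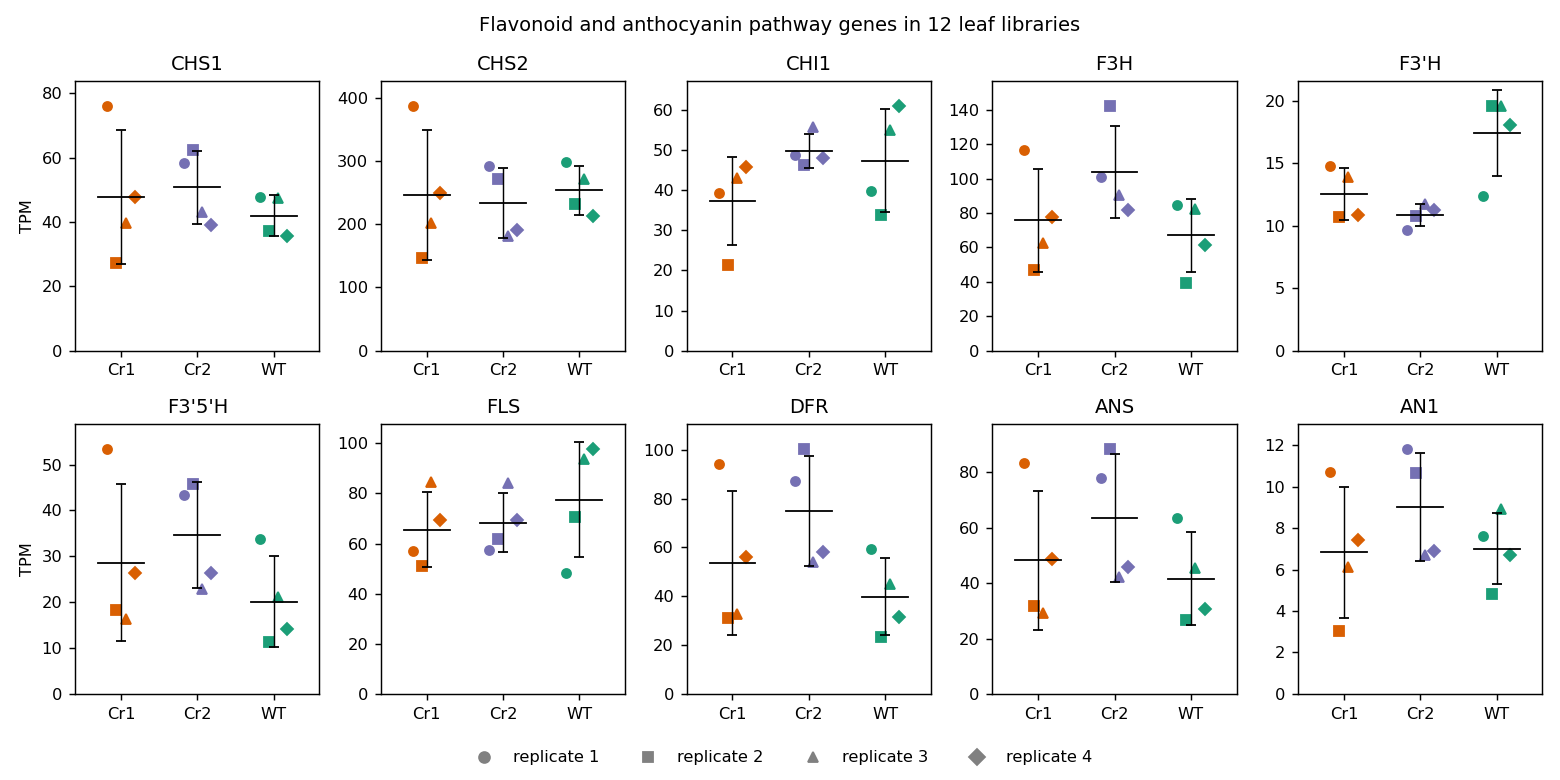
TPM (vertical axis, from 0) of the 10 pathway genes in each of the 12 libraries, by genotype, with the symbol giving the replicate number and the bars the mean and SD of 4 libraries. F3'H is the gene whose slmyb60Cr2 libraries, at 9.67 to 11.7 TPM, all lie below the WT libraries, at 12.4 to 19.6 TPM; the other genes overlap between each edited line and WT.

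F3'H, the cytochrome P450 of the flavonoid pathway that leads to quercetin-type compounds, was the only member to pass by the adjusted p alone. It had 14.8, 10.7, 13.9 and 10.9 TPM in slmyb60Cr1 and 9.67, 10.8, 11.7 and 11.2 TPM in slmyb60Cr2, against 12.4, 19.6, 19.6 and 18.1 TPM in WT. All slmyb60Cr2 libraries lay below all WT libraries, as did those of 4.96% of all tested genes, whereas 2 slmyb60Cr1 libraries stood above WT replicate 1. The mean level was 12.6 ± 2.09 TPM in slmyb60Cr1, 10.9 ± 0.880 TPM in slmyb60Cr2 and 17.4 ± 3.42 TPM in WT (SD, n = 4 each).

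The log2 fold change of F3'H was −0.66 in slmyb60Cr2 (SE 0.16, limma adjusted p = 0.0307), within the fold threshold, so it passed by the adjusted p alone. By that rule 7.41% of all tested genes passed in slmyb60Cr2, and 2.18% with a lower level. In slmyb60Cr1 the log2 fold change was −0.46 (SE 0.16) and missed (adjusted p = 0.159), and the difference between the lines was 0.20 (SE 0.16, adjusted p = 0.600). For the mean of both lines it was −0.56 (SE 0.14, adjusted p = 0.0353), where 2.25% of all genes passed with a lower level.

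The F3'H result was close to the threshold. In slmyb60Cr2 the limma adjusted p was 0.0848, 0.0816 and 0.0701 without WT replicate 2, 3 or 4, and 0.0688, 0.0774 and 0.0677 without slmyb60Cr2 replicate 1, 2 or 4, while the log2 fold change stayed between −0.81 and −0.59. For the mean of both lines, 4 of the 12 fits with 1 library left out passed, and the adjusted p was 0.120, 0.108 and 0.0944 without WT replicate 2, 3 or 4, 0.0602 and 0.0646 without slmyb60Cr1 replicate 2 or 4, and 0.0594, 0.0639 and 0.0564 without slmyb60Cr2 replicate 1, 2 or 4. WT replicate 1 was the WT library nearest to the edited lines, and without it the log2 fold change was −0.81 in slmyb60Cr2 (adjusted p = 0.0107) and −0.61 in slmyb60Cr1 (adjusted p = 0.0505).

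F3'5'H, the P450 that opens the way to delphinidin-type anthocyanins, had 53.4, 18.3, 16.4 and 26.3 TPM in slmyb60Cr1 and 43.3, 45.8, 23.0 and 26.4 TPM in slmyb60Cr2, against 33.8, 11.4, 21.1 and 14.2 TPM in WT. Only WT replicate 1 stood among the slmyb60Cr2 libraries. F3'5'H had a log2 fold change of 0.47 (−0.45 to 1.39) in slmyb60Cr1 and 0.84 (−0.08 to 1.76) in slmyb60Cr2, and neither passed (limma adjusted p of 0.629 and 0.260).

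DFR, the first enzyme of the anthocyanin branch proper, had 94.3, 31.0, 32.6 and 56.2 TPM in slmyb60Cr1 and 87.3, 100.4, 54.2 and 58.1 TPM in slmyb60Cr2, against 59.2, 23.5, 45.2 and 31.6 TPM in WT. The slmyb60Cr2 libraries were all above 3 of the WT libraries, and WT replicate 1 stood above 2 of them. The log2 fold change was 0.36 (−0.49 to 1.20) in slmyb60Cr1 and 0.95 (0.10 to 1.79) in slmyb60Cr2. The second had an unadjusted p of 0.0311 and did not pass over all genes (limma adjusted p = 0.167).

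ANS, which turns leucoanthocyanidins into coloured anthocyanidins, had 83.5, 31.6, 29.2 and 48.6 TPM in slmyb60Cr1 and 78.1, 88.5, 42.1 and 45.8 TPM in slmyb60Cr2, against 63.7, 26.7, 45.3 and 30.6 TPM in WT. The order of the libraries was much as for DFR. ANS had a log2 fold change of 0.17 (−0.68 to 1.01) in slmyb60Cr1 and 0.62 (−0.22 to 1.47) in slmyb60Cr2 (limma adjusted p of 0.875 and 0.370).

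FLS, the dioxygenase that makes flavonols, had 57.2, 51.1, 84.7 and 69.3 TPM in slmyb60Cr1 and 57.5, 61.8, 84.3 and 69.3 TPM in slmyb60Cr2, against 48.1, 70.5, 93.6 and 97.8 TPM in WT. In each genotype, replicates 3 and 4 were above replicates 1 and 2. The log2 fold change was −0.21 (−0.72 to 0.29) in slmyb60Cr1 and −0.15 (−0.65 to 0.36) in slmyb60Cr2. In every genotype the summed photosynthesis markers were split in the same way, in slmyb60Cr1 with 17478 and 10663 TPM in replicates 3 and 4 against 3727 and 8640 TPM in replicates 1 and 2, and their part in the FLS levels was not tested.

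AN1, the regulator, had the lowest mean level in each genotype, with 10.7, 3.03, 6.15 and 7.43 TPM in slmyb60Cr1 and 11.8, 10.7, 6.70 and 6.88 TPM in slmyb60Cr2, against 7.61, 4.83, 8.90 and 6.70 TPM in WT. The genotypes overlapped. The log2 fold change was −0.14 (−0.90 to 0.62) in slmyb60Cr1 and 0.35 (−0.41 to 1.11) in slmyb60Cr2.

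By mean level in WT, CHS2 came first at 254 ± 38.5 TPM, followed by FLS at 77.5 ± 23.0 TPM and F3H at 67.0 ± 21.3 TPM. CHI1 at 47.3 ± 12.7 TPM, CHS1 at 42.0 ± 6.43 TPM, ANS at 41.6 ± 16.8 TPM and DFR at 39.9 ± 15.7 TPM lay within each other's SD (n = 4 each). F3'5'H at 20.1 ± 9.97 TPM and F3'H at 17.4 ± 3.42 TPM were not apart beyond their SD either, and AN1 came last at 7.01 ± 1.71 TPM. In slmyb60Cr2 the order above CHI1 was CHS2, F3H, DFR, FLS, ANS and CHS1, with means of 234 ± 56.0, 104 ± 26.8, 75.0 ± 22.5, 68.2 ± 11.8, 63.6 ± 23.1 and 50.8 ± 11.4 TPM (SD, n = 4 each). DFR, FLS and ANS lay within each other's SD there. In slmyb60Cr1 the order was CHS2, F3H, FLS, DFR, ANS and CHS1, with means of 247 ± 103, 75.9 ± 29.9, 65.6 ± 14.8, 53.5 ± 29.5, 48.2 ± 25.0 and 47.7 ± 20.8 TPM (SD, n = 4 each), and each gene after F3H was within 1 SD of the gene before it.

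The spread between libraries of 1 genotype was wide. F3'5'H had a coefficient of variation of 59.7% in slmyb60Cr1, 33.5% in slmyb60Cr2 and 49.6% in WT, and DFR of 55.1%, 30.0% and 39.4% in the same order of genotypes. F3'H had 16.6%, 8.10% and 19.6%. The 10 genes together came to 933, 388, 530 and 639 TPM in slmyb60Cr1 and to 788, 840, 592 and 577 TPM in slmyb60Cr2, against 695, 499, 691 and 570 TPM in WT. slmyb60Cr1 replicates 1 and 2 were the highest and the lowest of all 12 libraries, although both are of the same line. Of the 10 genes, 7 had 1 of their 3 highest levels in slmyb60Cr1 replicate 1, 7 in slmyb60Cr2 replicate 1 and 6 in slmyb60Cr2 replicate 2.

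**Figure D3:**
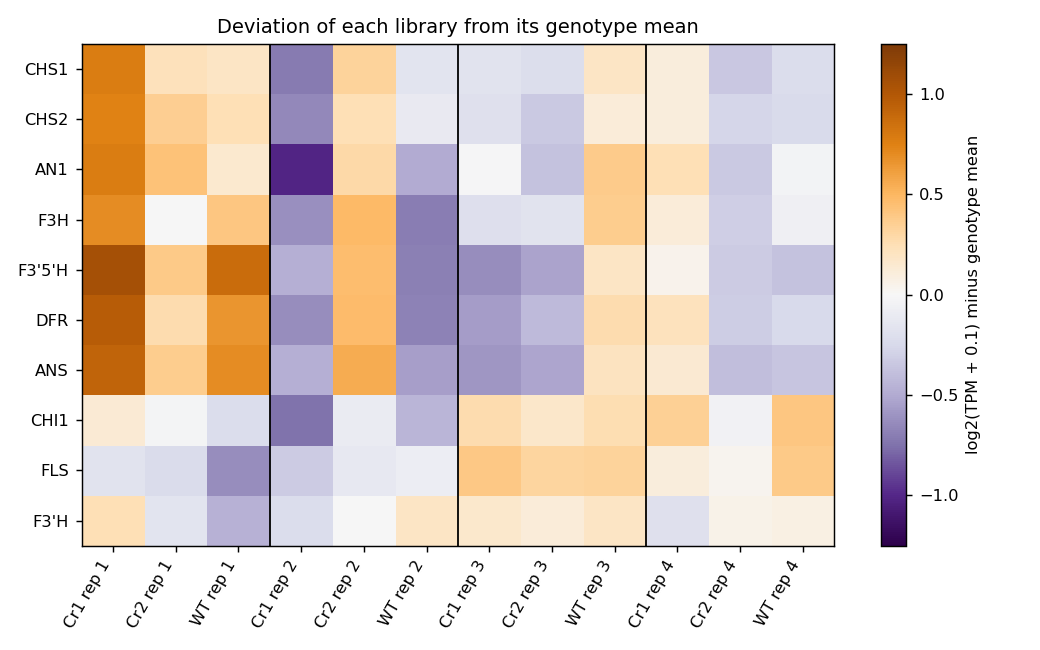
Deviation of log2(TPM + 0.1) of each pathway gene (rows) from the mean of its genotype in each of the 12 libraries (columns, in blocks of the same replicate number), with orange above and purple below the mean. CHS1, CHS2, AN1, F3H, F3'5'H, DFR and ANS are high together in slmyb60Cr1 replicate 1 and below the mean in slmyb60Cr1 replicate 2 and WT replicate 2. CHI1 was low in the last pair as well, at −0.75 and −0.44. CHS1 and CHS2 were only slightly low in WT replicate 2, at −0.16 and −0.12. Both were lower in WT replicate 4, at −0.22 and −0.24.

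The libraries also showed which pathway genes moved together once genotype was taken out. Correlations were computed over the 12 libraries on log2(TPM + 0.1) after the mean of each genotype was removed, for all 45 pairs, with exact permutation p values from all 13824 shuffles within genotypes. Of the 45 pairs, 21 passed at a Benjamini-Hochberg adjusted p below 0.05 by Pearson's r, all of them among CHS1, CHS2, AN1, F3H, F3'5'H, DFR and ANS, which make 21 pairs. The share of all gene pairs that would pass was not computed, so the count is not read as particular to the pathway. The shuffles treat the libraries of a genotype as interchangeable, and no p was computed with replicate means removed. The libraries share 1 total in TPM, and each value is a share of it. Replicate 1 had the lowest summed photosynthesis markers in slmyb60Cr1, slmyb60Cr2 and WT, at 3727, 6123 and 9062 TPM. CHS1, CHS2, AN1, F3'5'H, DFR and ANS were above the genotype mean in these libraries, and F3H was so in those of slmyb60Cr1 and WT. The part of leaf composition in the correlations was not tested.

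The late genes were the tightest. F3'5'H and ANS had r = 0.991 (permutation p of 7.23e-05, adjusted 0.00163) and rho = 0.986 (adjusted p = 0.00326), and r stayed at 0.990 without the 2 libraries farthest from the median of F3'5'H. DFR and ANS had r = 0.985 (adjusted permutation p = 0.00163) and rho = 0.965 (adjusted p = 0.00407), and r was 0.971 without the 2 farthest libraries. F3'5'H and DFR had r = 0.981 (adjusted permutation p = 0.00163) and rho = 0.972 (adjusted p = 0.00326).

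The chalcone synthases formed a second tight pair, with r = 0.982 (adjusted permutation p = 0.00618) and rho = 0.972 (adjusted p = 0.00586), and r = 0.950 without the 2 farthest libraries. AN1 followed CHS1 with r = 0.934 (adjusted permutation p = 0.00803) and rho = 0.860 (adjusted p = 0.0195), and with r = 0.852 without the 2 farthest libraries. F3H was nearest to DFR, with r = 0.938 (adjusted permutation p = 0.00163) and rho = 0.951 (adjusted p = 0.00326).

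FLS and F3'H stood outside this group. FLS had r = −0.55 with F3'5'H (adjusted permutation p = 0.210) and rho = −0.51 (adjusted p = 0.292), and r fell to −0.28 without the 2 farthest libraries. FLS and F3'H had r = 0.679 (adjusted permutation p = 0.120) and rho = 0.503 (adjusted p = 0.315), and r fell to 0.265 without the 2 farthest libraries. CHI1 was nearest to FLS, with r = 0.703 (adjusted permutation p = 0.0775) and rho = 0.790 (adjusted p = 0.0294).

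Since libraries with the same replicate number could share a harvest or a run, r was also computed after the replicate means were removed, and within replicates 1 and 2 and within replicates 3 and 4. The labels do not say what the number stands for. For DFR and ANS it was 0.996, 0.999 and 0.997, for F3'5'H and ANS 0.987, 0.992 and 0.987, and for CHS1 and CHS2 0.988, 0.990 and 0.944. CHI1 differed from these, with r of 0.382 with CHS1 over all 12 libraries, and 0.838 after the replicate means were removed, 0.976 within replicates 1 and 2 and 0.496 within replicates 3 and 4. FLS and F3'5'H had −0.08, −0.34 and −0.34 in the same order, and FLS and F3'H had 0.775, 0.885 and 0.655. After the replicate means were removed, FLS had r of 0.43 with CHS1, 0.42 with CHS2, 0.11 with F3H, 0.033 with DFR and 0.0021 with ANS.

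**Figure D4:**
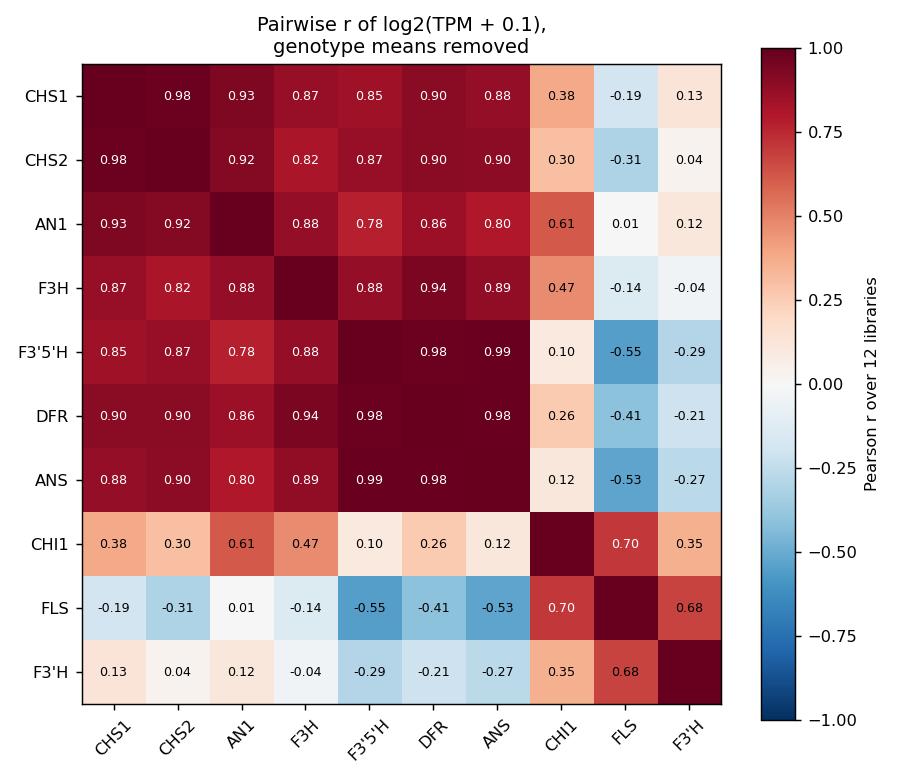
Pearson's r between pathway genes over 12 libraries on log2(TPM + 0.1), with genotype means removed; red is positive and blue negative. The block of CHS1, CHS2, AN1, F3H, F3'5'H, DFR and ANS has r of 0.78 to 0.99, and FLS has r below 0 with each of these except AN1, at 0.01. With replicate means removed as well (not drawn), only that of FLS with F3'5'H was below 0, at −0.08.

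Of the 21217 other genes tested, AN1 had the pattern most like that of CHS1 over the 12 libraries, genotype differences included, with r = 0.911 on log2(TPM + 0.1). CHS2 had rank 3 with r = 0.888, ANS rank 8 with 0.880, DFR rank 12 with 0.860, F3H rank 13 with 0.850 and F3'5'H rank 16 with 0.841. CHI1 had rank 4587, F3'H rank 15770 and FLS rank 17074. The 10 nearest genes outside the pathway list had r of 0.843 to 0.894. Among these 10 were 4 of 7 loci that had been listed as enzymes and transporters acting on anthocyanins after ANS, an assignment that the files do not annotate.

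DFR, a comparison chosen after its values were seen, had these loci nearer still. The 3 genes most like DFR were all of that list, with r up to 0.981, followed by F3'5'H with 0.976 and ANS with 0.972. Of the 7 loci, 6 had r above 0.9 with DFR, against 0.0801% of the 21217 genes. No p is given for these ranks, because the 12 libraries are the same for every gene.

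The loci around the pathway were counted from lists whose members the files do not annotate. Of the 7 loci for steps after ANS, none was called in either line. All 7 had log2 fold changes above 0 in slmyb60Cr1, with a median of 0.22, and in slmyb60Cr2, with a median of 0.81, while 45.3% and 57.4% of all tested genes had fold changes above 0. At an unadjusted p below 0.05, limma found 0 of them higher in slmyb60Cr1 and 3 in slmyb60Cr2, against 8.26% and 15.3% of all genes. Of the 7 loci, 6 had r above 0.9 with DFR over the same libraries. The 7 loci are not independent of each other, so no result is drawn from these counts. Their summed level was 854, 327, 334 and 503 TPM in slmyb60Cr1 and 707, 1076, 510 and 550 TPM in slmyb60Cr2, against 572, 241, 469 and 336 TPM in WT, so that the edited lines overlapped with WT.

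Upstream of chalcone synthase, 13 of 15 loci listed for the general phenylpropanoid steps were in the table and 10 were tested. Of these, 1 was called, Solyc03g042560, which was higher in slmyb60Cr1 and not called in slmyb60Cr2. Of all genes tested, 0.669% were called in slmyb60Cr1 and 1.4% in slmyb60Cr2. It had 0.517, 1.54, 2.30 and 3.14 TPM in slmyb60Cr1 and 0.693, 0.144, 0 and 0.437 TPM in slmyb60Cr2, against 0.189, 0.114, 0.0538 and 0.0974 TPM in WT. Its level was near the limit of testing. It reached 0.5 TPM in all slmyb60Cr1 libraries, in slmyb60Cr2 replicate 1 and in no WT library. The locus was thus tested only because of its level in slmyb60Cr1, and no result is drawn from its call. All slmyb60Cr1 libraries were above all WT libraries, as they were for 4.63% of all genes. The log2 fold change by limma was 3.01 (SE 0.66, adjusted p = 0.0492) in slmyb60Cr1 and 0.62 (SE 0.66, adjusted p = 0.639) in slmyb60Cr2. Leaving out 1 library ended the call in slmyb60Cr1 in 9 of 12 cases, with adjusted p of 0.0564 to 0.148 by limma. It stood without slmyb60Cr1 replicate 1 and without slmyb60Cr2 replicate 1 or 3. The summed level of the 13 loci was 698 to 990 TPM in slmyb60Cr1, 677 to 843 TPM in slmyb60Cr2 and 667 to 838 TPM in WT.

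None was called in either line among the 3 loci listed for the chlorogenic acid branch, the 3 listed as further chalcone isomerase family members and the 8 tested of 10 loci listed as regulators of the pathway. At an unadjusted p below 0.05, limma found 1 locus of the chlorogenic acid list lower in each line, where 17.1% of all genes in slmyb60Cr1 and 23.1% in slmyb60Cr2 passed in either direction. Among the regulators it found 1 lower in slmyb60Cr1, and 1 higher and 1 lower in slmyb60Cr2. The median log2 fold change of the regulators was −0.16 in slmyb60Cr1 and 0.28 in slmyb60Cr2, beside −0.02 and 0.04 over all genes tested.

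Ratios between members within a library take out what they share. The ratio of CHS2 to CHS1 was 5.09, 5.40, 5.11 and 5.21 in slmyb60Cr1 and 5.01, 4.33, 4.22 and 4.85 in slmyb60Cr2, against 6.26, 6.25, 5.74 and 5.96 in WT. All 8 edited libraries were below all 4 WT libraries, with means of 5.20 ± 0.141 in slmyb60Cr1, 4.60 ± 0.385 in slmyb60Cr2 and 6.05 ± 0.248 in WT (SD, n = 4 each). This ratio was picked after all 45 pairs had been looked at, and it alone lay apart from WT in both lines. Among all other genes, the ratio to CHS1 was below that of WT with no overlap for 0.429% in slmyb60Cr1, for 6.75% in slmyb60Cr2 and for 0.24% in both.

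Neither test of this ratio passed, and neither was able to decide whether it differed. It was first fitted with limma on the log2 ratio of each of 21217 genes to CHS1, which gave −0.22 (SE 0.25, adjusted p = 0.9995) in slmyb60Cr1 and −0.40 (SE 0.25, adjusted p = 0.884) in slmyb60Cr2. The SE of this fit drew in part on the ratios of all other genes to CHS1, which hold the spread of CHS1 itself. An exact permutation test of all 45 ratios in both lines, 90 tests in all, was added after the limma result had been seen. This exact permutation test gave p = 0.0286 for the ratio in each line, two-sided, the smallest that 4 against 4 libraries allow. The Benjamini-Hochberg adjustment over the 90 tests made it 0.198, the lowest adjusted value among them. At this smallest p, a ratio could pass only if most of the 90 tests reached it as well. In all, 2 of the 45 ratios did not overlap with WT in slmyb60Cr1 and 11 in slmyb60Cr2. The 45 ratios share their genes and are not independent of each other. The share among ratios between all genes was not computed, so no difference between the lines is drawn from these counts.

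**Figure D5:**
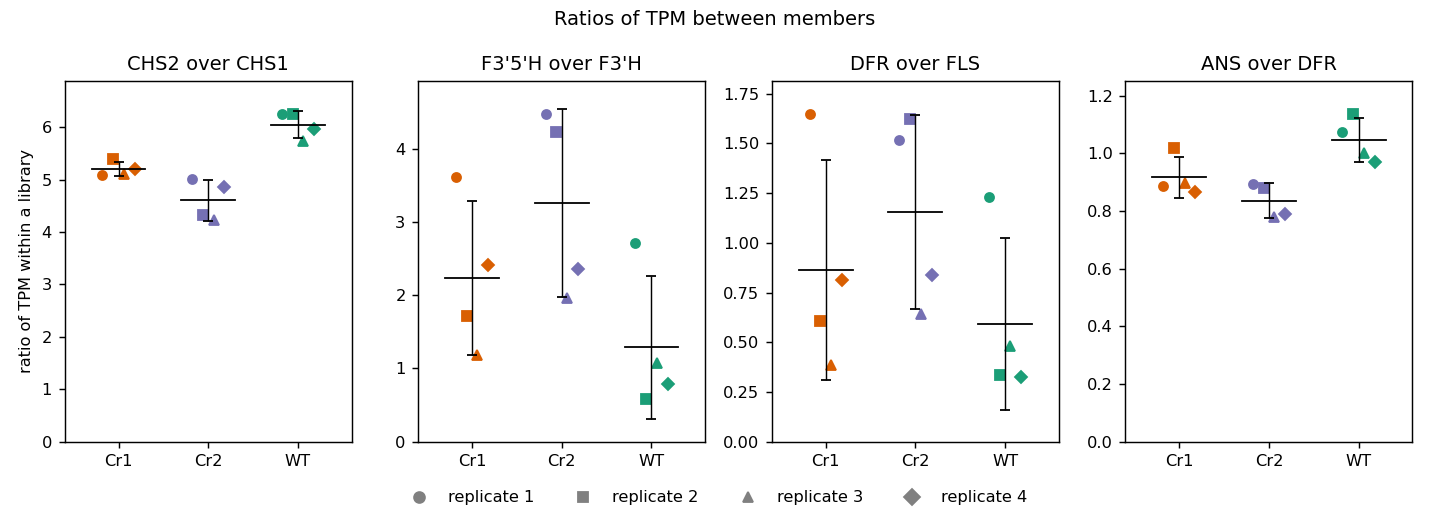
Ratio of TPM between pathway genes within each library (vertical axes, from 0), by genotype, with symbols for the replicate number and bars for the mean and SD of 4 libraries. CHS2 over CHS1 lies between 4.22 and 5.40 in the edited lines and between 5.74 and 6.26 in WT, and the ratios of F3'5'H over F3'H and of DFR over FLS overlap between the genotypes.

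The ratio of ANS to DFR was 0.885, 1.02, 0.896 and 0.864 in slmyb60Cr1 and 0.895, 0.881, 0.778 and 0.788 in slmyb60Cr2, against 1.07, 1.14, 1.00 and 0.969 in WT. It did not overlap between slmyb60Cr2 and WT, but the same held for 28.3% of all other genes set against DFR. For the 2 genes whose enzymes modify the B ring, the TPM ratio of F3'5'H to F3'H was 3.61, 1.72, 1.18 and 2.41 in slmyb60Cr1 and 4.48, 4.23, 1.96 and 2.35 in slmyb60Cr2, against 2.72, 0.580, 1.08 and 0.784 in WT. WT replicate 1 was the WT library that stood among the edited ones. At the branch point, the ratio of DFR to FLS averaged 0.863 ± 0.552 in slmyb60Cr1 and 1.16 ± 0.488 in slmyb60Cr2, against 0.593 ± 0.432 in WT (SD, n = 4 each), and the genotypes overlapped.

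Between the edited lines, none of the 10 genes passed, where 0.151% of all tested genes were called. Of the 10, 8 had lower log2 levels in slmyb60Cr1 than in slmyb60Cr2, as had 63.9% of all tested genes, with a median difference of −0.42 against −0.06 over all genes. The 10 genes are not independent of each other, so no result is drawn from this count. The limma adjusted p values ranged upward from 0.406, and the largest difference, that of DFR, was −0.59 (95% interval −1.43 to 0.25). Without slmyb60Cr1 replicate 1 it was −0.91 (adjusted p = 0.260).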

How the data were processed

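Per the study's methods, the authors cleaned the reads with fastp and quantified them with Salmon against the ITAG 4.0 transcripts, using its GC and sequence bias options. They deposited TPM, 1 value per gene and library, with replicates not pooled. Each deposited column sums to 1000000 and holds no read counts per gene, so a count test was not fitted. The study reports the total reads of each library, which were not used here. Instead, limma 3.58.1 (R 4.3.3, trended variance) was run on log2(TPM + 0.1) with genotype as the only factor and all 12 libraries together. It covered the 21218 of 33976 genes that reached 0.5 TPM in 4 or more libraries, and p values were adjusted over all of them by the Benjamini-Hochberg method. Single ratios and correlations were tested by exact permutation. Scripts were tested on simulated data.

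The members and lists were chosen with earlier results of these data known. Named are the 10 members, SlMYB60 and listed loci that passed the adjusted p against WT. Other listed loci are only counted, because the files do not annotate them. The labels do not say that replicates were grown separately, while the methods call them biological replicates. Alternatives covered the pseudocount, the TPM limit, the scaling, the variance model, the libraries in the fit, a replicate block, the call rule and leaving out each library. Figures were drawn with matplotlib 3.10.9.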

Additional observations from a re-analysis of the deposited data

How the results depend on the processing

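No member was called under any alternative that kept the fold threshold. By the adjusted p alone, 1 member, F3'H, passed in slmyb60Cr2 and 1, again F3'H, in the mean of both lines. Of the member values without a library left out, 310 kept direction and side of the threshold. The TPM limits, the variance model, the replicate block and the fit of the compared groups alone left each member's fold change unchanged. Direction could not turn under these. With 1 library left out, 462 values kept both and 18 turned sign, none of them past the threshold. Many of the 462 could not turn either, because dropping a library outside the comparison leaves the fold change unchanged. In slmyb60Cr1 against WT the log2 fold change ran from −0.16 to 0.33 for CHS1, from −0.37 to 0.10 for CHS2, from −0.072 to 0.37 for F3H, from −0.14 to 0.40 for ANS and from −0.40 to 0.20 for AN1. In slmyb60Cr2 against WT it ran from −0.042 to 0.24 for CHI1. In the mean of both lines it ran from −0.28 to 0.0076 for CHI1 and from −0.059 to 0.27 for AN1. Between the lines it ran from −0.42 to 0.074 for CHS1, from −0.23 to 0.24 for CHS2 and from −0.20 to 0.042 for FLS. Among the uncalled values that kept their sign in slmyb60Cr1, that of DFR was 0.034 in place of 0.36 and that of F3'5'H 0.11 in place of 0.47 without slmyb60Cr1 replicate 1, and that of CHI1 −0.11 in place of −0.36 without slmyb60Cr1 replicate 2. The cause was not tested. SlMYB60 stayed called in both lines throughout.

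Same-numbered libraries had correlations of −0.05 to 0.44 between their deviations from the genotype means, 8 of 12 above 0.1, with a mean of 0.193 against −0.064 for libraries of other numbers, and 11 of 24 comparisons were best with their own number. Since 4 of 12 did not exceed 0.1 and the labels do not say what the number stands for, it was not used to pair libraries. The number took 73.4% of the spread of FLS, 50.7% of that of CHS2 and 50.2% of that of CHI1. The other members had smaller shares, among them ANS with 43.6% and F3'H with the lowest, 8.49%. What share the number took over all genes was not computed, so these shares do not set any member apart. F3H, F3'5'H and DFR were higher, and F3'H lower, in slmyb60Cr2 than in WT in 4 of 4 same-numbered pairs. CHI1 was lower in slmyb60Cr1 than in WT in 4 of 4. The share of all genes that did so was not computed, so no result is drawn from these counts. With the replicate block, F3'H in slmyb60Cr2 had an adjusted p of 0.0370 and DFR of 0.0929, and Solyc03g042560 of the phenylpropanoid list, called in slmyb60Cr1 without the block, had an adjusted p of 0.0573 by limma. In slmyb60Cr2, 1 locus of that list passed by the adjusted p alone with the block. Of the 7 settings with every library kept that tested Solyc03g042560, 4 ended its call (adjusted p by limma 0.0533 to 0.123), the block among them. A limit of 1 TPM in 4 libraries left it out of the test. The block gave 210 called genes in slmyb60Cr1 in place of 142 and 373 in slmyb60Cr2 in place of 298. A pseudocount of 1 gave 197 in slmyb60Cr2, the groups compared alone gave 88 in slmyb60Cr1, and scaling moved the share of higher calls between the lines to 54.8% in place of 43.8%. Leaving out 1 library moved the count of called genes to between 77 (without WT replicate 4) and 292 (without slmyb60Cr1 replicate 1) in slmyb60Cr1, between 186 and 355 in slmyb60Cr2 and between 7 and 35 between the lines, where it is 32. TPM keeps no read counts per gene, so the precision of the low genes, AN1 among the members, is not known.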
